A study of Mus musculus with 9 samples.

Results

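Alveolar macrophages of 2 control genotypes were compared by poly(A) RNA sequencing, to describe normal alveolar macrophages, the spread between pools of them and the differences between their genotype backgrounds. The floxed controls carry Vhl alleles flanked by loxP sites on both chromosomes and no Cre (labelled Vhl(flox/flox) / CD11c (+/+)). The Cre controls carry wild-type Vhl and 1 copy of a Cre recombinase gene labelled as CD11c (cre/+), which is expressed from the promoter of CD11c (Itgax), and so in macrophages and dendritic cells. The members were taken by these genotype labels. They are 6 of the 9 libraries of the series, with 3 per group, and all 12003 measured genes. The other 3 libraries, Vhl(flox/flox) / CD11c (cre/+) knockouts, serve as a reference only. All mice were 8 to 12 weeks old, of C57BL/6 background and kept at steady state. Each library is a pool of 5 to 7 mice matched for age and sex, rinsed from the airways and enriched with beads against CD11c. The 2 control groups differ in the Vhl alleles and in the Cre gene at the same time, so a difference due to the floxed allele or DNA linked to it, to the Cre gene, or to colony cannot be told apart from these libraries.

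Alveolar macrophages live on the surface of the air spaces, where they take up and break down surfactant, inhaled particles and microbes. They renew themselves locally under the growth factor GM-CSF and the lipid-sensing receptor PPARγ, and differ from most tissue macrophages in their high CD11c. VHL recognizes the hydroxylated alpha subunits of hypoxia-inducible factors (HIF), their oxygen-regulated parts, and hands them to a ubiquitin ligase for destruction. A floxed allele is intended to work normally until Cre removes the DNA between its loxP sites. A gene edited in embryonic stem cells of one mouse strain and bred into another can carry flanking DNA of the first strain along with it, which is why called genes are also placed by their distance from Vhl.

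The 6 control libraries held 18201116 to 21408542 reads on the genes of the table. Values are normalized reads, meaning whole reads scaled to library size and multiplied by 1 normalization factor for each library. One read is worth 0.0463 to 0.0565 normalized reads in the controls. Where no read was counted, the true count could by counting error alone be as high as 3, which is 0.139 to 0.170 normalized reads. No library was a copy of another. Vhl (chr6:113623959-113631633, GRCm38) was read at 21.04, 14.9 and 18.4 in the floxed controls and 24.03, 21.9 and 25.3 in the Cre controls, against 2.02, 2.14 and 2.52 in the knockouts. All knockout libraries thus lay below all controls. The sexes of the pools are not given. Xist, the RNA that coats the silenced X chromosome of female cells, was read at 312, 348 and 761 in floxed and 315, 291 and 210.2 in Cre controls, so floxed control 3 stood above the other pools. Its part in the results was not tested, and without that pool limma called 23 genes, against 20 with it.

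Both control groups had the profile of alveolar macrophages. Levels between genes are compared per kilobase of merged exons, as mean ± SD over the 6 control libraries. The highest protein-coding gene was Lyz2, the lysozyme of macrophages, at 19479 ± 2856 normalized reads per kilobase, followed by Chil3, a chitinase-like protein abundant in alveolar macrophages, at 10951 ± 943. The lowest library of Lyz2 still lay above the highest of Chil3 (15203 against 12461). The mitochondrial gene mt-Co1, a subunit of cytochrome oxidase, stood at 9426 ± 2507, and the iron store genes Ftl1 and Fth1 at 5922 ± 920.4 and 1947 ± 342. Of lysosomal genes, the protease genes Ctsd and Ctss stood at 3683 ± 371 and 2367 ± 204, and Psap, which encodes activators of lipid breakdown, at 2594 ± 277.

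Of the top 25 protein-coding genes per kilobase, 9 were encoded by the mitochondrial genome. Others of these 25 were Ear2, a ribonuclease of alveolar macrophages and eosinophils, at 2066 ± 287, the tetraspanin Cd9 at 1516 ± 118 and the chemokine Ccl6 at 1461 ± 166 normalized reads per kilobase. Genes near each other in this order often lay within each other's SD, as for Psap and the elongation factor Eef1a1 at 2456 ± 161. Itgax itself stood at 439 ± 101 and held position 63 among protein-coding genes. The lipoprotein lipase gene Lpl stood at 351 ± 47.3 and Plin2, which coats lipid droplets, at 311 ± 27.4. The macrophage transcription factor genes Spi1 and Cebpb stood at 157 ± 12.5 and 211 ± 33.6. Vhl was far lower, at 6.98 ± 1.26 normalized reads per kilobase, and held position 5226.

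**Figure D1:**
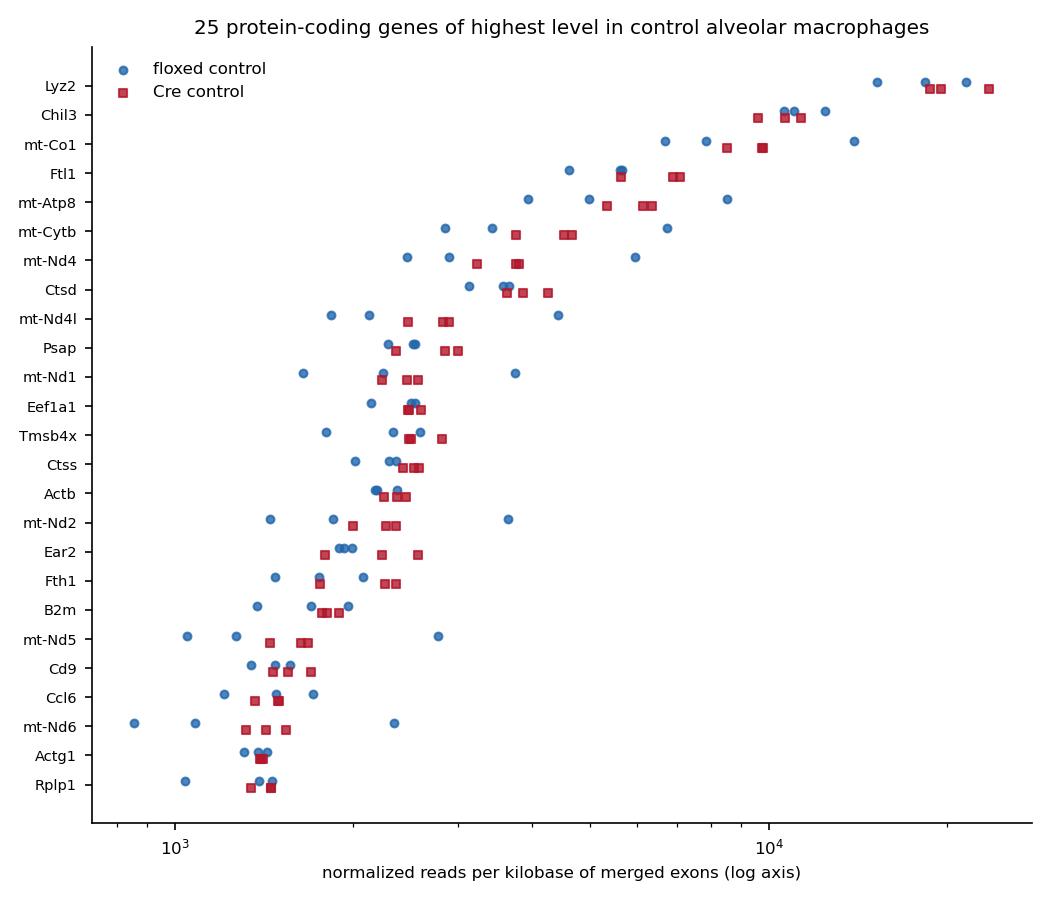
Normalized reads per kilobase of merged exons (log axis) for the 25 protein-coding genes of highest mean level over the control libraries, with 1 circle for each of the 3 floxed control pools and 1 square for each of the 3 Cre control pools. Lyz2 and Chil3 lead, with overlapping groups for both, and for the mitochondrial genes 1 floxed control pool lies to the right of the rest.

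The label was checked against marker lists. Of 29 markers of alveolar macrophages, 28 were measured, and their summed level was 39944, 44857 and 39969.9 normalized reads in the floxed controls and 45008, 39606 and 44826 in the Cre controls, so the groups overlapped. Siglecf, the lectin that defines these cells in mice, was read at 454, 495 and 459 and 593, 458 and 554, and the scavenger receptor gene Marco at 408, 746 and 512 and 363, 590.3 and 632. All 14 general macrophage markers were measured. The 14 monocyte markers summed to 17839 to 22881 in the controls, but 1 of them, Chil3, is also on the alveolar macrophage list, and without it they summed to 2004 to 2991. Markers of several other cell types were much lower. T and NK cell markers (4 of 15 measured) summed to 24.3, 6.91 and 10.5 in floxed and 7.27, 11.98 and 11.98 in Cre controls, and of endothelial and fibroblast markers only Pecam1, an adhesion molecule of endothelial cells, was measured, 1 of 10, at 2.28, 0.8702 and 1.202 and 0.556, 0.209 and 0.339. Epithelial markers (12 of 16 measured) summed to 606 to 922, of which Krt19, a keratin that alveolar macrophages also express and that is on their list too, gave 341 to 528. Scgb1a1, a secreted protein of airway club cells, was read at 134, 44.9 and 22.5 in floxed and 114, 97.1 and 134 in Cre controls. Genes of the table had to reach 0.962 normalized reads in 3 libraries, so an absent marker was below that level or was not counted.

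The spread between pools was small for most genes and slightly wider in the floxed controls. Over the 9780 genes whose control mean reached 5 normalized reads, the median coefficient of variation across 3 pools was 8.24% in floxed controls, 6.74% in Cre controls and 6.22% in knockouts. The median gap between 2 pools was 0.113 to 0.157 on the log2(value + 1) scale within floxed controls and 0.0932 to 0.129 within Cre controls. Between a floxed and a Cre pool it was 0.100 to 0.167, so pools of different genotype were about as far apart as pools of the same genotype. The common biological coefficient of variation that edgeR estimated over the 6 control libraries was 16.3%.

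The widest spread belonged to genes of neutrophils and to a few genes that were high in 1 pool. S100a9, a subunit of the neutrophil protein calprotectin, was read at 177, 26.7 and 16.5 normalized reads in floxed controls, 75.2, 0.157 and 0.961 in Cre controls and 89.96, 5.003 and 8.76 in knockouts. Pool 1 was the highest of its group each time. Mmp9, a gelatinase stored in neutrophil granules, followed the same order at 99.1, 14.1 and 13.1 in floxed and 16.4, 0.209 and 0.735 in Cre controls. Cd177, a surface protein of neutrophils, was read at 137, 36.7 and 17.7 and 17.2, 0.419 and 0.452, and the antimicrobial siderophore binder Lcn2 at 66.9, 26.1 and 14.04 and 32.6, 0.732 and 0.848. Hdc, which makes histamine, was read at 105, 20.5 and 14.8 and 36.4, 0.576 and 1.13. All 5 of these genes were highest in floxed control 1, and all 5 were lower in Cre controls 2 and 3 than in any floxed control.

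Summed over the list, neutrophil markers (9 of 11 measured) reached 1321, 796 and 342 normalized reads in floxed controls, 618, 197 and 285 in Cre controls and 699, 245 and 389.8 in knockouts. S100a9 was near 0 in Cre controls 2 and 3, whereas Csf3r, the receptor for G-CSF, was read at 206, 82.3 and 95.2 in floxed and 111, 36.3 and 44.3 in Cre controls. In bulk samples, fewer cells of a type and less RNA per cell cannot be told apart. Floxed control 1 was also the highest pool for B cell markers (2 of 9 measured), at 73.3, 7.22 and 15.2 in floxed and 2.64, 1.36 and 3.45 in Cre controls, in floxed control 1 mostly from the antibody light chain gene Igkc (64.3, 4.25 and 11.1 against 0.324, 0.0523 and 0.396). Its share of reads on mitochondrial genes was the highest as well, at 5.59%, against 2.67% to 3.82% in the other control pools.

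Dendritic cell markers (all 18 measured) did not follow that order. Their sum was 331, 187 and 222 in floxed and 199.6, 409.6 and 357 normalized reads in Cre controls, highest in Cre controls 2 and 3. Ccr7, the receptor that guides dendritic cells to lymph nodes, was read at 42.4, 19.1 and 25.4 and 26.02, 69.8 and 61.6, and Ccl22, a chemokine they secrete, at 80.01, 47.6 and 58.4 and 57.5, 124 and 100.3. Ccl17, a related chemokine, was instead highest in floxed control 1, at 26.3, 12.1 and 9.86 and 7.87, 20.4 and 15.5. Of the 18 log2 differences, 9 were positive and 9 negative. The bead step keeps CD11c-bearing cells, and dendritic cells are among them. Red cell markers (4 of 6 measured) summed to 92.4, 13.7 and 13.2 in floxed and 61.4, 15.2 and 44.8 in Cre controls.

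Other genes of wide spread were high or low in 1 or 2 control pools. Lipf, a gastric lipase, was read at 14.2, 1047 and 12.6 in floxed and 23.01, 21.6 and 25.3 normalized reads in Cre controls. Lyz1, the lysozyme of Paneth cells, was read at 9.13, 314 and 2.89 and 3.01, 3.98 and 3.67, and Sbpl at 0, 329.5 and 0.0481 and 2.13, 1.57 and 0.961. These 3 genes were high in floxed control 2 alone, and Lipf and Sbpl were also high in knockout 3, at 167 and 51.7. The mitochondrial gene mt-Co3 was near 0 in Cre control 3 (126, 88.5 and 0.113), whereas the summed mitochondrial genes of that pool were not low. Gm8355, annotated as a processed pseudogene (a reverse-transcribed copy of a messenger RNA), was read at 71.8, 35.5 and 41.5 and 0, 4.08 and 48.4. Whether it shares reads with other genes was not tested.

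**Figure D2:**
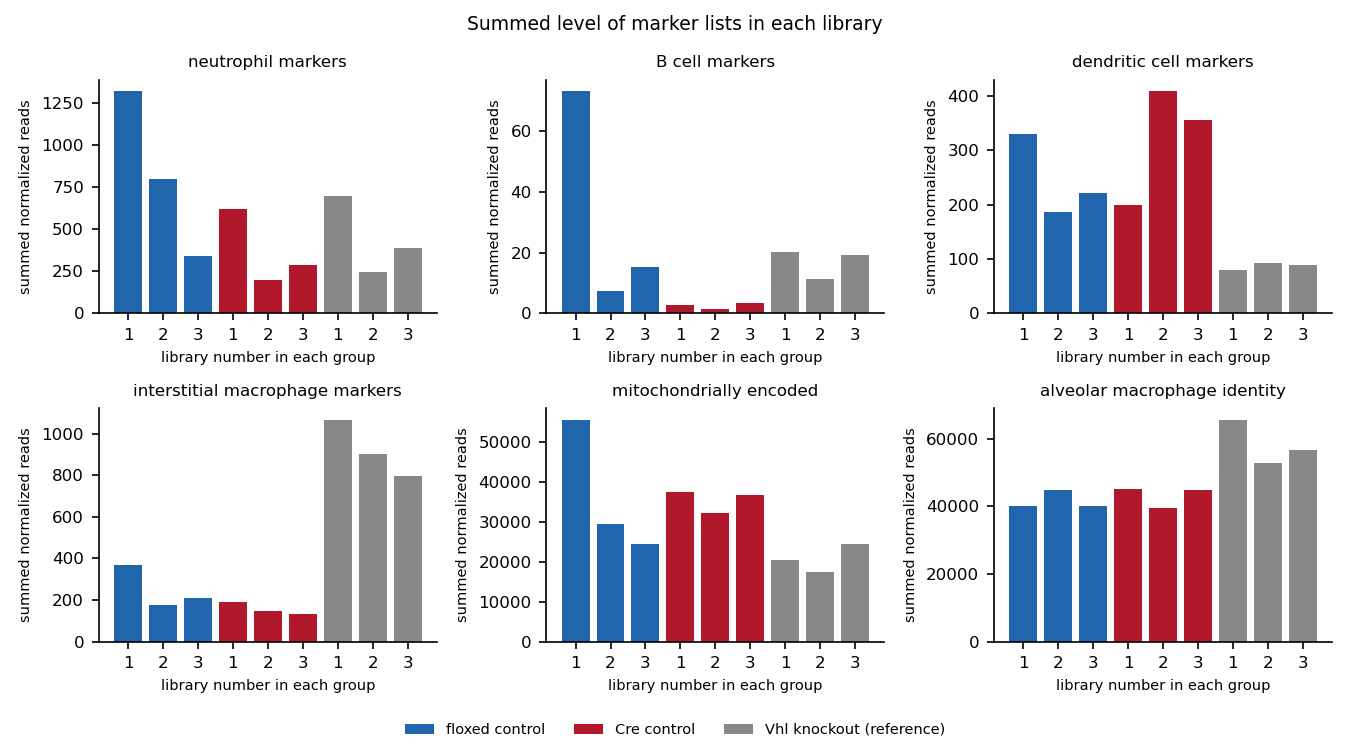
Summed normalized reads of 6 marker lists in each of the 9 libraries, as bars from 0, with floxed controls in blue, Cre controls in red and Vhl knockouts in grey. Neutrophil markers are highest in pool 1 of each group and reach 1321 in floxed control 1, B cell markers reach 73.3 there, and dendritic cell markers are highest in Cre controls 2 and 3.

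Against this spread, few genes separated the Cre controls from the floxed controls. In the limma fit on log2(value + 1), 20 of 12003 genes (0.167%) had an adjusted p under 0.05. Of these, 8 (0.0667%) were higher and 12 (0.100%) lower in Cre controls. Before adjustment, 961 genes (8.01%) had a limma p under 0.05, with 444 (3.70%) higher and 517 (4.31%) lower, and in 1425 genes (11.9%) the groups did not overlap. Differences of at least 0.5 on the log2 scale were seen in 233 of 9780 genes with a mean of at least 5 (2.38%). The median difference over all genes was 0.01. The count depended on single pools, with 31 calls without Cre control 1 and 13 without Cre control 3, and on the test, with 19 calls by edgeR (0.158%) and 74 by DESeq2 (0.618%).

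Most of the 20 genes lie on the chromosome of Vhl. On chromosome 6, 11 of 572 measured genes were called (1.92%), 4 higher and 7 lower in Cre controls, against 9 of 11431 elsewhere (0.0787%). Among these 9, Gm15459 and Gm26825 are annotated over the same DNA, so they are not separate places in the genome. Chromosome 6 thus held 55% of the calls and 4.77% of the genes tested. All 11 lie on the side of Vhl with the higher coordinates, where 204 genes were measured. None of the 367 genes on the other side was called by limma, although Nup210 and Itpr1 came close, with adjusted p of 0.0669 and 0.0677, and DESeq2 called 6 there. The called genes span chr6:115954811-138156755, or 22.2 Mb, starting 2.32 Mb and ending 24.5 Mb from Vhl.

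By distance from Vhl toward higher coordinates, limma called 3 of 65 genes up to 10 Mb away, 4 of 77 from 10 to 20 Mb, 4 of 35 from 20 to 30 Mb and none of 27 beyond 30 Mb. The share of genes (mean of at least 5) that differed by at least 0.5 on the log2 scale was 9.43%, 10.7%, 21.4% and 0% in these windows, against 2.38% over all genes. In the 10 Mb before Vhl it was 8%, or 2 of 25 genes. Around Itgax on chromosome 7, none of 163 genes within 10 Mb was called, and 2.17% differed by at least 0.5. The genotype labels do not say where the Cre gene is inserted, so this window need not hold the DNA around it.

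**Figure D3:**
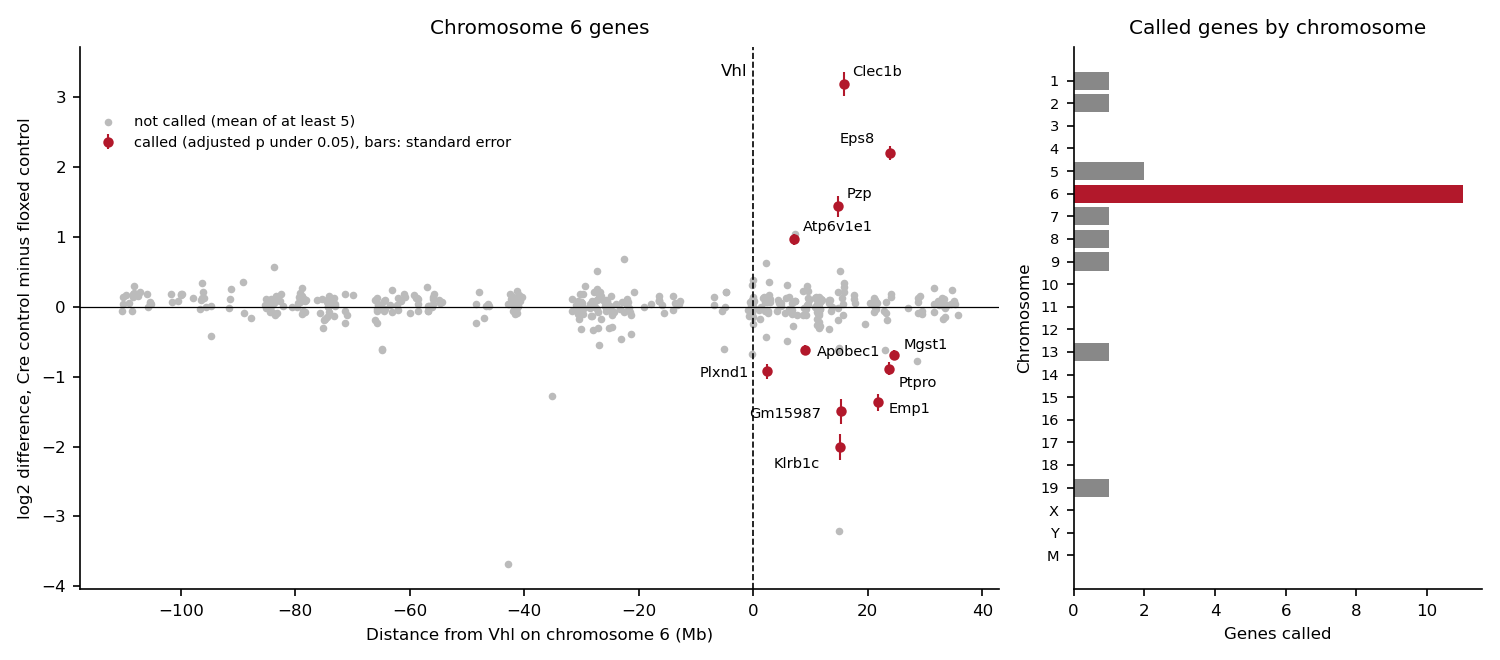
Left, log2 difference between Cre and floxed controls against distance from Vhl on chromosome 6, with called genes in red (bars, standard error) and other genes with a mean of at least 5 in grey. Right, the number of called genes on each chromosome. The 11 called genes of chromosome 6 all lie between 2.32 and 24.5 Mb to the right of Vhl, and no other chromosome has more than 2.

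The nearest called gene was Plxnd1 (chr6:115954811-115995005), a plexin that serves as a receptor for semaphorins. It was read at 472, 492 and 439 normalized reads in floxed controls, 208, 253 and 284 in Cre controls and 352, 406 and 372 in knockouts. Its log2 difference was -0.92 (SE 0.107, limma adjusted p = 0.00621), and the control groups did not overlap. It lost its call when only the 6 control libraries were fitted. Atp6v1e1 (chr6:120794305-120822793), a subunit of the proton pump that acidifies lysosomes, went the other way, at 129.7, 140.3 and 118 in floxed and 238, 253 and 267 in Cre controls. The Cre mean was 1.95 times the floxed mean (log2 difference 0.96, SE 0.0752, limma adjusted p = 0.000445), and the knockouts, at 133, 121 and 124, lay within the range of the floxed controls. Apobec1 (chr6:122577792-122602444), a cytidine deaminase that edits RNA, was lower in Cre controls, at 53.6, 48.4 and 49.5 against 81.4, 75.5 and 77.0 in floxed controls. Its log2 difference was -0.62 (SE 0.0661), and the knockouts were as low, at 45.7, 45.5 and 41.4.

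Between 14.9 and 15.8 Mb from Vhl lie 4 called genes, in and beside the natural killer gene complex, a cluster of genes for C-type lectin-like receptors. Clec1b (chr6:129397297-129409335), the receptor for podoplanin known from platelets, was read at 1.25, 0.973 and 0.962 normalized reads in floxed controls and 21.02, 16.5 and 16.1 in Cre controls. The Cre mean was 16.9 times the floxed mean, with a log2 difference of 3.19 (SE 0.175, limma adjusted p = 2.58e-05), and the knockouts stayed at 0.729, 1.33 and 0.5598. Its annotation overlaps Clec9a, a receptor of dendritic cells, which was not called at 1.903, 1.13 and 1.92 against 4.12, 4.45 and 3.34, and without a stated strand setting reads of the overlap cannot be assigned. Klrb1c (chr6:128778485-128789215), which encodes the NK1.1 antigen, was nearly absent from Cre controls, at 0.185, 0 and 0.1696, and was read at 4.51, 2.97 and 3.13 in floxed controls and 2.02, 1.17 and 1.399 in knockouts. The Cre controls held 7 reads of it in all and the floxed controls 206, a depth-scaled ratio of 29.3 (95% exact interval 13.95 to 73.7, counting error only).

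Pzp (chr6:128483567-128526720), a protease inhibitor of the alpha-2-macroglobulin family, was higher in Cre controls, at 7.87, 7.90 and 7.46 against 1.79, 1.89 and 3.17 normalized reads, and highest in knockouts, at 11.5, 10.4 and 10.7. Gm15987 (chr6:128951204-128975029), annotated as an antisense transcript, was read at 3.91, 2.71 and 2.405 in floxed, 0.3705, 0.576 and 0.283 in Cre controls and 3.43, 2.604 and 3.48 in knockouts. Its log2 difference of -1.50 (limma adjusted p = 0.006798) lost its call without Cre control 3, and both Gm15987 and Pzp lost theirs when only the 6 control libraries were fitted. Of the 29 genes listed for the complex, 15 were measured, and limma called only Clec1b and Klrb1c among them, 1 higher and 1 lower (0.167% of all genes were called), against 5 calls by DESeq2. An unadjusted limma p under 0.05 was found for 8 of the 15 (53.3%, against 8.01% of all genes), 6 higher and 2 lower, and the groups did not overlap for 7 (46.7%, against 11.9%). The abundant members Clec7a, the beta-glucan receptor, and Olr1, a receptor for oxidized lipoprotein, were read at 1407, 1258 and 1162 against 1642, 1503 and 1517 and at 383, 404 and 439.7 against 453, 449 and 519.8. For both, all Cre controls lay above all floxed controls, yet neither was called by limma (adjusted p = 0.573 and 0.5898).

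The other 4 called genes of chromosome 6 lie farthest from Vhl. Eps8 (chr6:137477245-137654876), which caps and bundles actin filaments, had the smallest adjusted p on the chromosome. It was read at 14.5, 12.2 and 12.4 normalized reads in floxed controls and 58.7, 62.7 and 68.6 in Cre controls, so that the Cre mean was 4.86 times the floxed mean, and the log2 difference was 2.20 (SE 0.101, limma adjusted p = 7.13e-06). The knockouts lay between the groups, at 28.6, 28.2 and 34.3. Its neighbour Ptpro (chr6:137252319-137463233), a receptor-type tyrosine phosphatase, was lower in Cre controls, at 17.04, 18.9 and 21.03 against 35.1, 38.3 and 34.0, with knockouts at 33.4, 34.9 and 39.6. These 2 neighbours thus differed in opposite directions between the same libraries.

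Emp1 (chr6:135362545-135383173), a small membrane protein with 4 membrane-spanning segments, was read at 191, 228 and 213 normalized reads in floxed and 81.6, 96.5 and 67.4 in Cre controls. The log2 difference was -1.37 (SE 0.121, limma adjusted p = 0.001204), and the knockouts were above both, at 452, 476 and 524. Mgst1 (chr6:138140316-138156755), a membrane-bound glutathione transferase, showed the same order, at 359, 364 and 313 in floxed, 207, 206 and 227 in Cre controls and 476, 441 and 463 in knockouts (log2 difference between controls -0.69, limma adjusted p = 0.00374). For both genes the knockout was thus farther from the Cre controls than from the floxed controls.

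Some neighbours were near the threshold and are named after their values were seen. Bid, a trigger of apoptosis, was read at 5.93, 4.402 and 3.85 normalized reads in floxed and 10.3, 11.1 and 10.7 in Cre controls (log2 difference 1.05, limma adjusted p = 0.0785). It lies next to Atp6v1e1, 7.26 Mb from Vhl. Ift122, a part of the cilium transport machinery 2.22 Mb from Vhl, was read at 19.4, 17.5 and 17.6 and 31.5, 27.8 and 26.6 (limma adjusted p = 0.157). A2ml1, another gene of the alpha-2-macroglobulin family, was read at 149, 114 and 15.7 against 10.9, 3.77 and 5.37, with a wide spread between the floxed pools, and was not called (limma adjusted p = 0.287).

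Outside chromosome 6, the largest difference of the whole comparison was at a copy of the chaperone gene Hspa8. Gm15459 (chr5:5781615-5783555, minus strand) is annotated as a processed pseudogene, which is a reverse-transcribed copy of a messenger RNA, and Gm26825 (chr5:5781530-5783636, plus strand) as a long noncoding RNA over the same DNA. Gm15459 was read at 2.23, 1.07 and 0.962 normalized reads in floxed controls, 140.5, 457 and 415 in Cre controls and 0.386, 0 and 0.5998 in knockouts (log2 difference 6.99, SE 0.404, limma adjusted p = 3.27e-05). Gm26825 had 0 reads in each floxed control, 149, 411 and 381 normalized reads in Cre controls and 0, 0.511 and 0 in knockouts. Against the limit of 3 reads per floxed library, its mean in Cre controls was at least 2039.6-fold higher, counting error only. That bound leaves out how reads are divided between similar genes. Both Gm15459 and Gm26825 were called by limma under all 15 alternatives. Genes of the table had to reach 0.962 normalized reads in 3 libraries, and Gm26825 reached that level only in the Cre controls. Its presence in the table therefore rests on the group where it is high.

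Reads of the copy and of Hspa8 are hard to tell apart. Over 1941 aligned bases Gm15459 and the coding Hspa8 transcript that aligned best to it were 99.7% identical with no gaps. Of the 61-base windows of Gm15459, the length of 1 read, 98.2% also occurred in another annotated transcript and 83.8% in Hspa8, and of those of Gm26825, 92.7% were shared and 78.9% occurred in Hspa8. The windows below show 1 of the few places where the genes differ, with the differing base in capitals, as given by GENCODE transcripts on GRCm38 (Hspa8, exon 2, plus strand, chr9:40802006-40802066, and Gm15459, exon 1, minus strand, chr5:5783412-5783472).
Hspa8: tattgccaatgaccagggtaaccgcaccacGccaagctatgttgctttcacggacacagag
Gm15459: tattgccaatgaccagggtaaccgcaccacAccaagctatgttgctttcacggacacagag
Hspa8 itself was read at 2705, 2268 and 2238 normalized reads in floxed and 1499, 2240.3 and 1953 in Cre controls and was not called (log2 difference -0.36, limma adjusted p = 0.624). In each Cre control the copy and the noncoding RNA together were below Hspa8. The authors counted with RSEM, which divides a read that fits several genes among them. Windows of Gm15459 were shared with 12 other genes, as were those of Gm26825. Of the windows of Gm15459, 95.4% occurred in Gm26825, and 91.3% of those of Gm26825 occurred in Gm15459. The same reads may therefore lie behind both calls. The split of reads between all these genes in each library is therefore an estimate.

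Another copy went the other way. Gm6166 (chr9:57483963-57484371) is annotated as a processed pseudogene of 409 bases and resembles Fabp5, a fatty acid binding protein. It was read at 9.95, 42.7 and 21.4 normalized reads in floxed controls, 0, 0.157 and 0 in Cre controls and 10.8, 33.5 and 13.1 in knockouts (limma adjusted p = 0.00462). The Cre controls held 3 reads of it in all and the floxed controls 1462, a depth-scaled ratio of 485 (95% exact interval 166 to 2353, counting error only). The copy and Fabp5 were 98.8% identical over 407 aligned positions, and 42.7% of the 61-base windows of the copy occurred in Fabp5. The next 2 windows show 1 of the differing bases in capitals (Fabp5, exon 2, plus strand, chr3:10015050-10015110, and Gm6166, exon 1, plus strand, chr9:57484121-57484181).
Fabp5: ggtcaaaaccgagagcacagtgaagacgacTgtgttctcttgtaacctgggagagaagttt
Gm6166: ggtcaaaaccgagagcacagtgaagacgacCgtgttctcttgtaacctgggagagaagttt
Fabp5 was read at 365, 301 and 247 in floxed and 304, 451 and 422 in Cre controls, with a log2 difference of 0.36 and no call (limma adjusted p = 0.627). In both pairs, the copy and its parent gene had differences of opposite sign, but neither parent was called and the groups overlapped for each. Whether reads were moved between copy and parent was not tested.

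The other 6 calls are single genes on 6 chromosomes. Ide (chr19:37268743-37337852), the insulin-degrading enzyme, was read at 68.4, 74.8 and 77.0 normalized reads in floxed, 102, 119 and 116 in Cre controls and 55.5, 57.4 and 57.5 in knockouts (log2 difference 0.61, SE 0.0712, limma adjusted p = 0.00621). It is on a list of 6 genes known to vary between C57BL/6 substrains, of which 5 were measured and 1 was called (0.167% of all genes were). An unadjusted limma p under 0.05 was found for 3 of the 5 (60%, against 8.01% of all genes), 2 higher and 1 lower. The groups did not overlap for 2 (40%, against 11.9%). Of the listed genes other than Ide, its neighbour Btaf1 was read at 60.5, 62.9 and 69.7 and 66.6, 75.9 and 75.5. Nnt, a mitochondrial enzyme lost in the J substrain, was read at 49.4, 55.2 and 53.2 and 45.1, 44.1 and 42.4 (limma adjusted p = 0.627 for Btaf1 and 0.345 for Nnt). Plcb4 (chr2:135659011-136014593), a phospholipase that acts downstream of receptors, was read at 4.24, 1.43 and 0.721 in floxed, 23.3, 15.5 and 28.3 in Cre controls and 10.3, 13.6 and 12.6 in knockouts (log2 difference 3.02, SE 0.356). Both Ide and Plcb4 lost their call without Cre control 3 and with the 6 control libraries alone.

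Fcgr2b (chr1:170958617-170976547), the inhibitory receptor for IgG, was lower in Cre controls, at 188, 182 and 158 against 246, 248 and 234 normalized reads, and was at 1049, 976 and 1042 in knockouts. The difference between controls was small (log2 difference -0.47, SE 0.0725, limma adjusted p = 0.0487), and it was called under 6 of 15 alternatives. It was the only call among 22 measured phagocytic and scavenger receptors (0.167% of all genes were called). An unadjusted limma p under 0.05 was found for 6 of the 22 (27.3%, against 8.01% of all genes), 3 higher and 3 lower. The groups did not overlap for 4 (18.2%, against 11.9%). Cd209c (chr8:3940222-3954746), a lectin related to DC-SIGN, was read at 5.16, 3.63 and 10.0 in floxed and 0.278, 0.628 and 0.509 in Cre controls (limma adjusted p = 0.009003), and it lost its call under 3 of 14 alternatives.

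Siglech (chr7:55768178-55778925), a lectin of plasmacytoid dendritic cells, was read at 6.52, 2.61 and 4.57 normalized reads in floxed controls, 0.834, 0.0523 and 0.283 in Cre controls and 0.558, 1.33 and 0.6398 in knockouts. Its call (log2 difference -1.98, limma adjusted p = 0.04303) held under 6 of 14 alternatives and was lost in edgeR. It was the only one of 18 dendritic cell markers that limma called (0.167% of all genes were), and DESeq2 called 2. An unadjusted limma p under 0.05 was found for 4 (22.2%, against 8.01% of all genes), 1 higher and 3 lower. The groups did not overlap for 4 (22.2%, against 11.9%). The sum of the list was highest in Cre controls 2 and 3, as given above. Gm11380 (chr13:31884225-31885224), a processed pseudogene inside Gmds, was read at 2.39, 2.25 and 5.48 and 0.324, 0.105 and 0.0565 and was called under 8 of 14 alternatives. The naming rule did not cover Gm15987, Cd209c and Gm11380, which are named because they complete the 20.

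**Figure D4:**
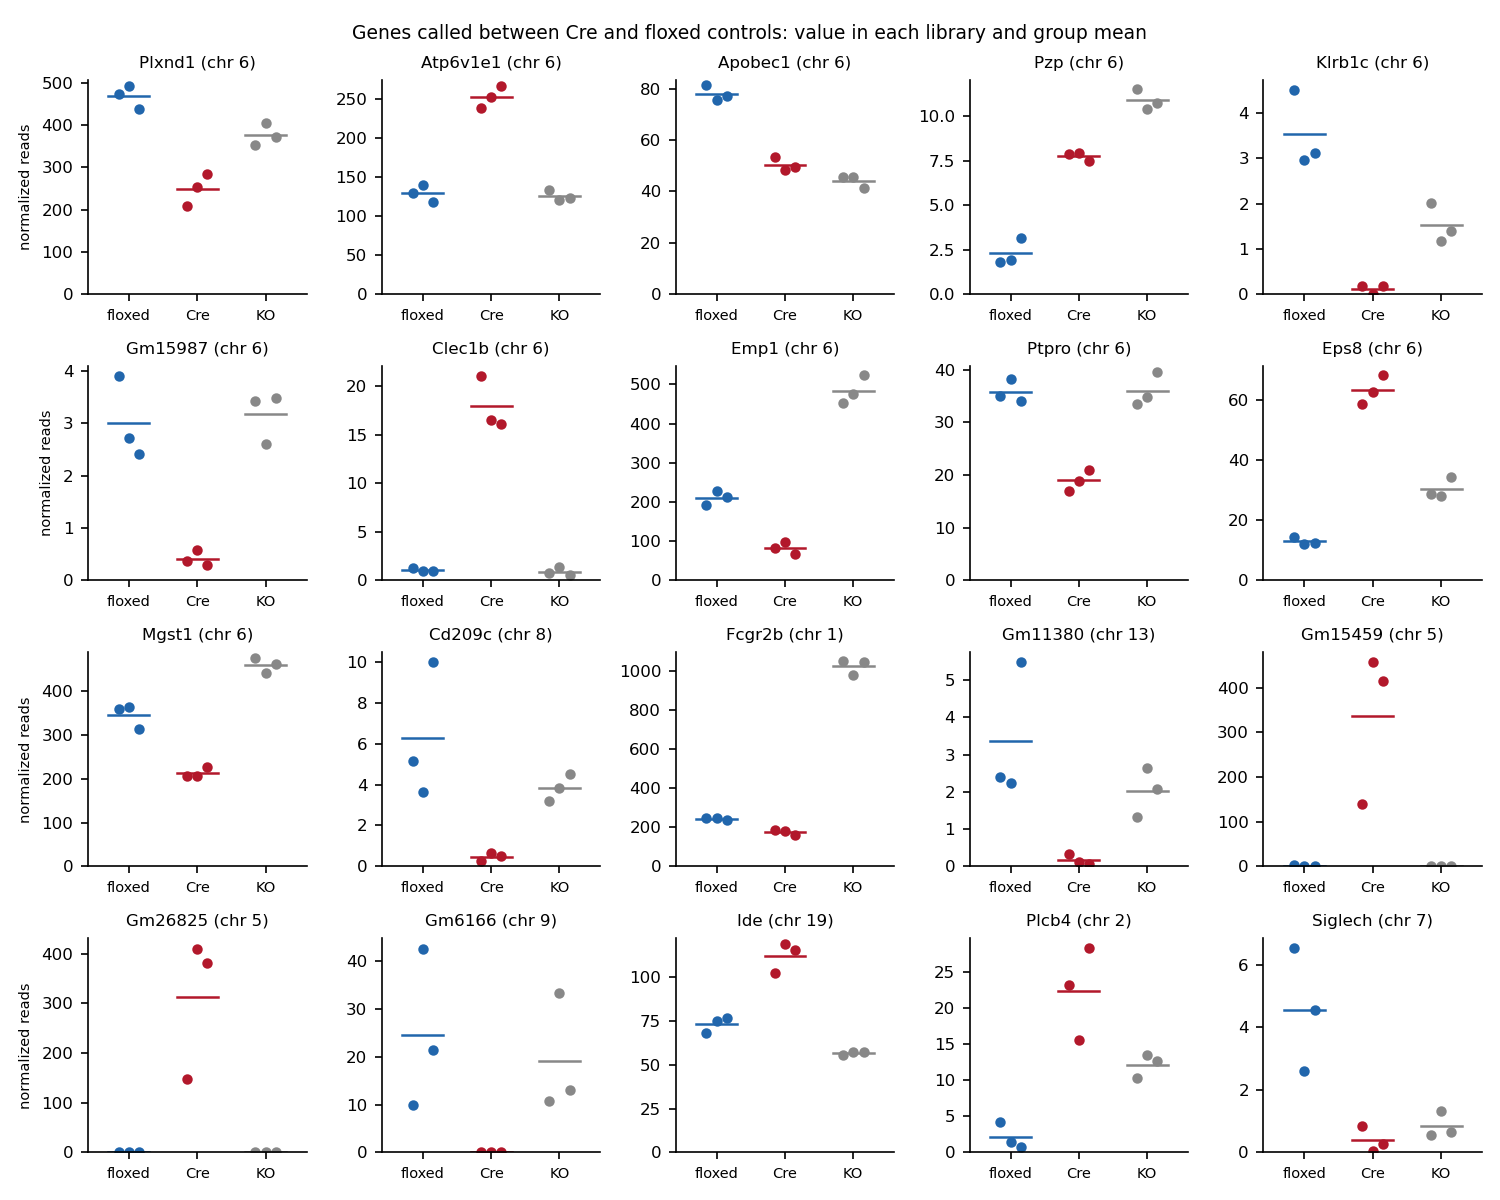
Normalized reads (linear axis from 0) of the 20 called genes in each library of the floxed controls (blue), Cre controls (red) and Vhl knockouts (KO, grey), with a line at the group mean, chromosome 6 genes first. The floxed and Cre libraries do not overlap for any of the 20 genes, and the knockouts lie with the floxed controls for some genes and with the Cre controls, or apart from both, for others.

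Itgax, whose promoter drives the Cre gene, was read at 1672, 1727 and 1747 normalized reads in floxed controls, 2652, 2103 and 2760.4 in Cre controls and 1812, 1956 and 1924 in knockouts. All 3 Cre controls lay above all floxed controls, with a log2 difference of 0.54 (SE 0.106). Limma did not call it (adjusted p = 0.157), but DESeq2 did (adjusted p = 1.09e-05), as did limma without Cre control 2 (adjusted p = 0.0239). The knockouts, which carry the same Cre label, lay nearer to the floxed controls. Vhl was 0.38 higher on the log2 scale in Cre controls (SE 0.128) with no overlap between the groups, and limma did not call it (adjusted p = 0.573), which does not show that the floxed and wild-type alleles give equal RNA.

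Genes downstream of VHL showed no called difference between the controls. None of 34 HIF target and glycolysis genes was called by limma, edgeR or DESeq2. An unadjusted limma p under 0.05 was found for 2 (5.88%, against 8.01% of all genes), 1 in each direction. The median log2 difference of the list was 0.01, as for all genes, but 0.10 without floxed control 1, where that of all genes was 0.02. Their summed level was 5367, 5439 and 4780.3 normalized reads in floxed and 5329.5, 5419 and 5679 in Cre controls, against 23039, 23037 and 23254 in knockouts. The glycolytic enzyme genes Aldoa and Ldha, for example, were read at 1044, 1119 and 939 against 1112, 1114 and 1219 and at 481, 505 and 420.1 against 505, 469.9 and 509. Egln3, a HIF-induced prolyl hydroxylase named after its values were seen, was at 5.001, 1.64 and 0.625 and 1.57, 1.67 and 1.87, but at 1609, 1603 and 1883 in knockouts.

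Of 15 genes of the VHL ligase and the HIF pathway, none was called by limma, edgeR or DESeq2. An unadjusted limma p under 0.05 was found for 2 (13.3%, against 8.01% of all genes), Vhl and its scaffold partner Cul2, both higher in Cre controls. Hif1a, an alpha subunit of HIF, was read at 144, 142 and 143 and 139, 176 and 161, and Elob, which links VHL to the ligase, at 58.2, 52.9 and 38.9 and 55.7, 49.9 and 55.5. Of 21 measured p53 targets and DNA damage genes, none was called by these 3 tests, and 3 (14.3%) had an unadjusted limma p under 0.05, 2 higher and 1 lower. Among them Bax, a trigger of apoptosis, was read at 63.9, 66.8 and 56.9 in floxed and 73.03, 69.8 and 69.1 in Cre controls, and Ccng1 at 215, 194 and 182 and 189, 213 and 207. The list was included because Cre can cut DNA at sites resembling loxP.

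Alveolar macrophage identity genes leaned slightly toward the Cre controls. Of 28 measured, 23 had a positive log2 difference and the median was 0.17, against 0.01 over all genes, where 53.1% were positive. None was called by limma or edgeR, 2 were by DESeq2, 2 by limma without Cre control 2 and 1 without Cre control 1. An unadjusted limma p under 0.05 was found for 7 (25%, against 8.01% of all genes), 6 higher and 1 lower. The groups did not overlap for 6 (21.4%, against 11.9%). Fabp4, a fatty acid binding protein induced by PPARγ, was read at 74.3, 78.3 and 66.1 and 91.5, 114 and 113, so the groups did not overlap, while Pparg itself was at 142, 169 and 145 and 167, 167 and 162. Car4, a carbonic anhydrase on the cell surface, leaned the other way, at 525, 658 and 469.6 and 407, 467 and 475. Of 25 surfactant lipid genes, the median was 0.15, with no call by limma or edgeR, 1 by DESeq2, 1 by limma without Cre control 1, and 5 (20%) at an unadjusted limma p under 0.05. Of 26 growth factor receptors and regulators, 4 (15.4%) were at that level (1 higher, 3 lower) and none was called by the 3 tests.

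Cell cycle genes leaned toward the floxed controls. Of 40 measured, 39 had a negative log2 difference, the median was -0.23, and 13 had an unadjusted limma p under 0.05, all lower in Cre controls (4.31% of all genes were). The groups did not overlap for 4 of the 40 (10%, against 11.9% of all genes). None of the 40 was called after adjustment by limma, edgeR or DESeq2. The median was -0.14 without Cre control 1 and -0.37 without Cre control 2. The summed level was 2110.1, 2583 and 2330.0 in floxed and 1687, 2384 and 1926 normalized reads in Cre controls, so Cre control 2 lay inside the range of the floxed controls and Cre controls 1 and 3 below it. Pcna, the clamp of DNA polymerase, was read at 239, 277 and 225 and 215, 254 and 227, and Mcm3, a part of the replicative helicase, at 93.7, 126 and 114 and 90.9, 109.7 and 98.2. The members share the same 6 pools and are not independent of each other.

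Immediate early and dissociation stress genes had a median of -0.23 over 24 genes (-0.14 without floxed control 3). Limma and edgeR called none and DESeq2 called 1. An unadjusted limma p under 0.05 was found for 7, all lower in Cre controls (29.2%, against 4.31% of all genes). The groups did not overlap for 5 (20.8%, against 11.9%). Fos, the subunit of AP-1 that responds first, was read at 145, 277 and 305 and 158, 181 and 242, and Jund at 139.5, 122 and 132 and 111, 117 and 119.8. Interstitial macrophage markers (13 of 16 measured) had a median of -0.63 (-0.40 without floxed control 1). None was called by limma or edgeR, and 1 was by DESeq2. An unadjusted limma p under 0.05 was found for 7, all lower (53.8%, against 4.31% of all genes). The groups did not overlap for 3 of the 13 (23.1%, against 11.9%). The sum of the list was 368, 177 and 210.1 in floxed and 188, 146 and 132 in Cre controls. The complement genes C1qa and C1qb were read at 16.7, 8.19 and 12.2 against 9.77, 7.38 and 5.48 and at 15.4, 9.06 and 15.8 against 9.77, 4.81 and 5.31. Neutrophil markers, described above by pool, had a median of -1.05 with 2 of 9 (22.2%) at an unadjusted limma p under 0.05, both lower, and none called by limma, edgeR or DESeq2. That median was -0.60 without floxed control 1, -1.64 without floxed control 3 and -1.74 without Cre control 1, where limma called 1 of them. The neutrophil sum was highest in floxed control 1, as were the interstitial macrophage sum and the stress sum, and the part of these cells in the differences was not tested.

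In the remaining lists limma called no gene. None of 14 MHC class II and costimulation genes was called by limma, edgeR or DESeq2, with 1 at an unadjusted limma p under 0.05. Cd74, the chaperone of MHC class II, was read at 1496, 609 and 859 in floxed and 1071, 542 and 832 in Cre controls, so its spread within each group exceeded the difference. None of 23 cholesterol synthesis genes and none of 28 interferon response genes was called by these 3 tests, with 0 and 1 at an unadjusted limma p under 0.05. Of the cholesterol synthesis genes, 22 had a negative log2 difference, and the groups did not overlap for 0. Their median was -0.11, and 0.01 without Cre control 1. The interferon-induced gene Bst2 was read at 38.9, 32.3 and 26.7 in floxed and 34.1, 37.2 and 34.1 in Cre controls. Of 17 measured cytokines and chemokines, none was called by the 3 tests and 3 had an unadjusted limma p under 0.05 (1 higher, 2 lower), and Il1b, an inflammatory cytokine, was read at 387, 98.2 and 88.7 and 136, 26.5 and 32.2. Of the 14 monocyte markers, 5 (35.7%) had an unadjusted limma p under 0.05 and were lower in Cre controls, against 4.31% of all genes, and 12 of the 14 log2 differences were negative. None was called by limma or edgeR, and the count was 1 by DESeq2, by limma without floxed control 2 and by limma without Cre control 1. The 14 general macrophage markers and the 13 mitochondrially encoded genes had none at that level and no call by the 3 tests. Limma called no marker of T and NK cells, B cells, eosinophils and mast cells, epithelium, red cells or endothelium. Their members at an unadjusted limma p under 0.05 numbered 2 of 4, 2 of 2, 0 of 2, 2 of 12, 0 of 4 and 1 of 1. Those of T and NK cells, B cells and endothelium were all lower in Cre controls (4.31% of all genes were). Of the epithelial ones, 1 was higher and 1 lower. DESeq2 called 1 each of the T and NK cell, B cell and epithelial markers, and edgeR none. Without floxed control 1 limma called 1 B cell and 1 epithelial marker, and without floxed control 2 it called 1 B cell marker. Of 6 measured sex-linked genes none was called by the 3 tests. An unadjusted limma p under 0.05 was found for 2 (33.3%, against 8.01% of all genes), 1 higher and 1 lower. None of the 4 measured genes of the Y chromosome was called by limma. The 3 with a mean of at least 5 had a median absolute log2 difference of 0.47, against 0.081 over all such genes. The part of sex in these differences was not tested.

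**Figure D5:**
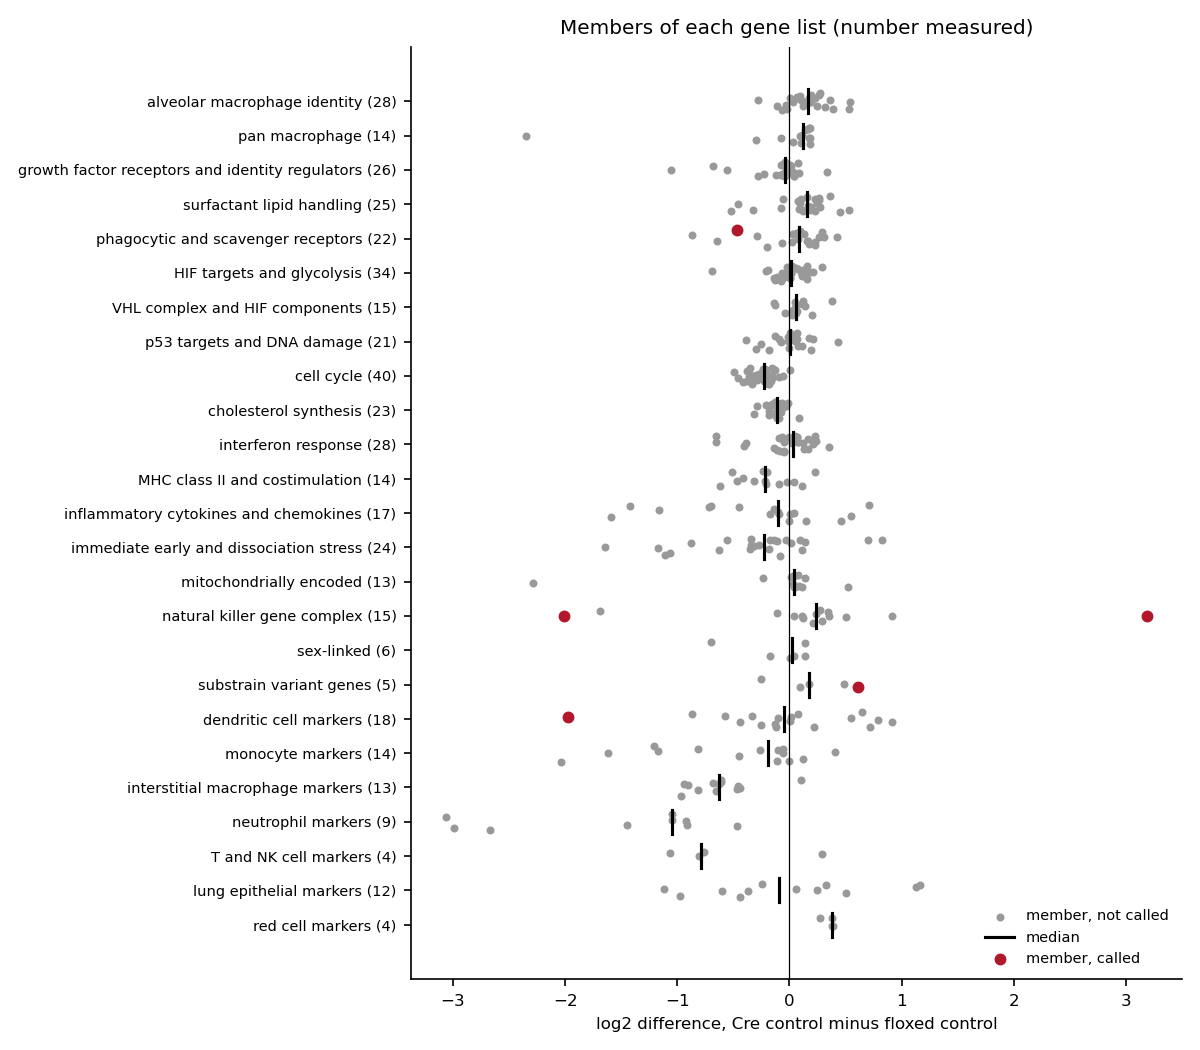
Log2 difference between Cre and floxed controls for each measured member of the lists with at least 3 measured genes, as points, with the list's median as a black bar and called genes in red. Most medians lie close to 0, cell cycle members sit just left of 0, and the members of the neutrophil and interstitial macrophage lists lie left of 0 with a wider spread.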

How the data were processed

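Poly(A) RNA of alveolar macrophages was measured in 9 libraries, of which the 6 controls were compared. The submitters' processing notes name the GRCm38 build and the tools CASAVA 1.8.2, cutadapt 1.3 and RSEM 1.2.3. Neither the annotation nor the strand setting nor the scaling step is stated, each being not given in the sources used here. In the table the authors deposited, with 12003 Ensembl genes, each signal value equals whole reads times a factor of its library (all values, 100%, were whole within 0.01 read). The factors equal recomputed TMM factors on library-size scaled reads, so such scaling hides any change common to all genes. No column was left out (0 columns). RSEM divides reads that match several genes, which affects copies.

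Symbols, positions and exon lengths came from GENCODE M21 (GRCm38), which names 11935 of the genes and leaves 68 unnamed. The unit is a scaled value, so limma 3.58.1 in R 4.3.3 was used rather than the edgeR test foreseen for raw counts. Group means were fitted with an intensity trend to log2(value + 1) of all 9 libraries. Knockouts add to the estimate of spread. The log2 differences understate the change of low genes. Tests were two-sided, with Benjamini-Hochberg adjustment over 12003 genes, and a gene was called when this p was under 0.05. P-values measure the spread between pools. Alternatives were edgeR 4.0.16, DESeq2 1.42.0, other pseudocounts, scalings and filters, a replicate block, and leaving out each control pool. The scripts were tested on simulated data.

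The comparison, the 28 gene lists and the naming rule were chosen with earlier results of these data known. The rule names Vhl and Itgax, called genes with a mean of at least 5 and no overlap (up to 12 per direction), up to 3 called and 3 highest members of each list, the 25 highest protein-coding genes per kilobase, the 10 genes of widest spread with a mean of at least 10, and called genes within 10 Mb of Vhl or Itgax or farthest from Vhl. Siglecf, Marco, Pparg, Fabp4, Csf3r, Cul2, Clec9a, Fabp5, Nup210, Itpr1 and Xist were added after their values were seen. A gene that the rule also names is not reported here.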

Additional observations from a re-analysis of the deposited data

How the results depend on the processing

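The count of genes called between Cre and floxed controls stayed within 1.5 times the reported 20 (14 to 23) under other pseudocounts, a mean of at least 5, both other scalings and edgeR. DESeq2 called 74 genes (25 higher, 49 lower), of which 29 lay on chromosome 6, and the fit with only the 6 control libraries called 11 (5 higher, 6 lower). Lower calls numbered 7 with a pseudocount of 5 and 6 with a mean of at least 5, which tests fewer genes of low level. Leaving out 1 control pool at a time gave 13 to 31 calls, with 6 to 16 higher, 7 to 17 lower and 10 to 13 on chromosome 6. The lowest count came without Cre control 3 and the highest without Cre control 1, and the cause was not tested. All 20 reported genes were among those called by DESeq2, 18 by edgeR and 11 with the control libraries alone. Of the chromosome 6 calls, 0 lay before Vhl under most settings, 1 under 4 of them, 4 with the block and 6 by DESeq2. The median spread between pools, 0.128 on the log2 scale, was 0.101 with a pseudocount of 5, which narrows low genes by construction. None of the 20 called differences changed sign. Of 122 genes followed across the settings, 34 changed sign when a pool was left out, among them Cd74, Ccl17, Bst2, Lipf and Sbpl, and none of these was called in the reported test or where its sign changed.

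With the number in the sample titles as a replicate block, 71 genes were called (12 higher, 59 lower), 18 of them on chromosome 6, and all 20 reported genes were among them. The block also called 5 of 9 neutrophil, 3 of 14 monocyte and 3 of 24 stress genes, of which limma without it called none. Deviations of same-numbered floxed and Cre pools correlated at 0.20, 0.098 and -0.082 over 9829 genes, and those of the knockouts with them at 0.58 and 0.33 for pool 1, -0.050 and 0.23 for pool 2 and 0.17 and 0.033 for pool 3. Of the 9 pairs, 5 were above 0.1, and in 8 of 18 comparisons a pool correlated best with its own number in another group. The pools numbered 1 correlated positively with each other in every pair of groups. With differently numbered pools of other groups they correlated at -0.040 to -0.47. Pools 2 and 3 of different groups correlated with each other at 0.13 to 0.42. What the pools numbered 1 share was not tested. The labels do not state that equal numbers pair the pools, and the reported test leaves the numbers out. At 3 pools per group, markers of rare cells and genes below the deposit's level could not be assessed.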
